A study of Homo sapiens with 59 samples.

Results

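The complement system is a set of blood proteins and cell surface receptors, and most of its soluble proteins are made by hepatocytes. The 31 genes described here code for complement factors, regulators and receptors. They were chosen by name, with earlier results of these data known, by matching the Ensembl identifiers of the deposited count table to gene symbols. They are 31 of 60675 genes in that table. Of these, 28 had enough counts to be tested. C9, which builds the ring of the membrane pore, CFHR3, a plasma protein related to a complement regulator, and C3AR1, the receptor of the C3a fragment, were not tested. C9 had at most 1 count in any library, CFHR3 had 1 count in 1 library of the 59, and C3AR1 had at most 3 counts in any library and 0 in the vehicle libraries.

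The cells were HepG2, an established human hepatocellular carcinoma line, collected 24 h after treatment in 20 groups. Vehicle cells received DMSO and positive control cells received wortmannin, which inhibits phosphoinositide 3-kinase, at 10 uM. The other 18 groups received hot water extracts of 6 medicinal plants. Those of Pinelliae Tuber, Zizyphi Fructus, Scutellariae Radix, dried ginger (Zingiberis Rhizoma) and fresh ginger (Zingiberis Rhizoma Recens) were given at 500, 100 or 20 ug/mL, and Coptidis Rhizoma was given at 210, 42 or 8.4 ug/mL. Its doses were lower because the series set the top dose by toxicity where an extract was toxic under 500 ug/mL. The vehicle is given as 0.1% DMSO with the samples and as 2% with the series, and no DMSO content is given for the extract and wortmannin groups. Every group had 3 libraries except Pinelliae at 20 ug/mL, which had 2. The series text also says that libraries with too little RNA were dropped.

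Complement is started by recognition proteins such as the mannose-binding lectin (MBL2) and by the proteases bound to them (C1R, C1S, MASP1, MASP2), which cleave C4 and C2. The resulting enzyme cleaves C3, the central protein, and the alternative pathway proteases CFB and CFD amplify that step. C5 is cleaved next and starts the pore made of C6, C7, C8 and C9, while the small fragment C5a acts on the receptors C5AR1 and C5AR2. Host cells are protected by the membrane proteins CD46, CD55 and CD59 and by soluble inhibitors that include CFI, C4BPA, SERPING1, CLU and VTN.

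Libraries held 21582603 to 31392069 counts, with a median of 25834162. Whether replicates were separate cultures is not stated, and the p-values then reflect the spread of these samples alone, which may be technical. The first part of the sample code was A1 for vehicle, 1 for wortmannin, 2 for the gingers, 3 for Scutellariae and Pinelliae and 4 for Zizyphi and Coptidis. Its meaning is not stated, and every title carries the same batch label. A treatment and this part of the code cannot be told apart in comparisons with vehicle or between extracts whose codes differ. Doses of 1 extract share it, as do fresh and dried ginger. Of the libraries, 3 stood apart from their own group: replicate 1 of dried ginger 500 ug/mL, replicate 3 of Pinelliae 100 ug/mL and replicate 1 of Zizyphi 20 ug/mL. Without all 3 of them, 18 complement genes were called with dried ginger at 500 ug/mL, as with them. The 9 hepatocyte markers, albumin (ALB) among them, summed to 42180 to 42960 CPM (read counts scaled by TMM to equal library size) in vehicle. They summed to 24150 to 25190 CPM with Coptidis at 210 ug/mL, and to 28200 to 29070 with Scutellariae, 36420 to 37410 with fresh ginger and 34540 to 39370 with dried ginger, each at 500 ug/mL. The sum was 47730 to 48810 CPM with wortmannin, and their part in the complement results was not tested. Among 9 leukocyte markers, PTPRC, CD3E, MS4A1 and CD163 had at most 3 counts in every library. Others of the 9 were expressed, and the 9 summed to 1399 to 1407 CPM in vehicle, most of it from LYZ. In bulk RNA, fewer cells of a kind and less RNA per cell cannot be told apart.

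In vehicle cells, levels per kilobase of transcript spread over a wide range. C3 was highest at 207 CPM per kb, followed by VTN (40.3 CPM per kb), C4B (38.6), CFI (36.4), C4A (34.9) and CLU (33.7). C5 stood at 24.1 CPM per kb, CFB at 22.1, C4BPA at 9.05, C8A at 5.05, MBL2 at 3.52 and CD55 at 2.18. At the low end were MASP1 at 0.487, C7 at 0.306, C6 at 0.202, C5AR1 at 0.0394 and C5AR2 at 0.00754 CPM per kb. Summed without regard to length, the genes made up 3710 ± 96.0 CPM (SD, n = 3), of which C3 alone gave 46.49%. The sum was 4384 ± 27.1 CPM with wortmannin, 3047 ± 33.3 with fresh ginger at 500 ug/mL, 3183 ± 107 with dried ginger at 500 ug/mL, 2907 ± 13 with Scutellariae at 500 ug/mL and 3013 ± 58.0 with Coptidis at 210 ug/mL (SD, n = 3 each).

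The bases directly before the transcription start are shown, as far as the promoter table reaches, for 5 genes on which the results turn: C8A, C4BPA and C5, which fell with Coptidis at 210 ug/mL, and CD55 and C5AR2, which were called higher there. They are RefSeq sequences on GRCh38.p14, where 23 of the 31 genes had a promoter entry. C5 and C5AR2 have 2 entries each. The entry shown was picked because it held a match, and the other entry of each gene held 0. The regions are chr1:56854547-56854796 (C8A, plus strand), chr1:207103983-207104232 (C4BPA, plus), chr9:121050276-121050525 (C5, minus), chr1:207321428-207321677 (CD55, plus) and chr19:47331925-47332174 (C5AR2, plus). Capitals mark matches, on either strand, to 1 of 8 motifs searched: AP-1 (TGANTCA), CRE (TGACGTCA), C/EBP (TTGCNNAA), HNF1 (GTTAATNAT), HNF4 (CAAAGTCCA), the xenobiotic response core (TNGCGTG), STAT (TTCCNGGAA) and NF-kappaB (GGGANTTCC).
C8A: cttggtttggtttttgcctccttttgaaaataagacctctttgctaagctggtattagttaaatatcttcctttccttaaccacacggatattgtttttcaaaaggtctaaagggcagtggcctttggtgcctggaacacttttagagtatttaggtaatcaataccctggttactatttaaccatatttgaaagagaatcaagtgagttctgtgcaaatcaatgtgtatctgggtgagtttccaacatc
C4BPA: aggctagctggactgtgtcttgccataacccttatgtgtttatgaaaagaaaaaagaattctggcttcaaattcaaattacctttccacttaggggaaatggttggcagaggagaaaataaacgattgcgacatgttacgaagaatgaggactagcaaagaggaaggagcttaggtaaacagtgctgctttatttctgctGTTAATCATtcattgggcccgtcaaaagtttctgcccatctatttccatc
C5: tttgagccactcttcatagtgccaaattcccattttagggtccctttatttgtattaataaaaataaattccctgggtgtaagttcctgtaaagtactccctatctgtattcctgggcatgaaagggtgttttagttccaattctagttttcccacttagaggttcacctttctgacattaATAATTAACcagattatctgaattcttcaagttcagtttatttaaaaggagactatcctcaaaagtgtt
CD55: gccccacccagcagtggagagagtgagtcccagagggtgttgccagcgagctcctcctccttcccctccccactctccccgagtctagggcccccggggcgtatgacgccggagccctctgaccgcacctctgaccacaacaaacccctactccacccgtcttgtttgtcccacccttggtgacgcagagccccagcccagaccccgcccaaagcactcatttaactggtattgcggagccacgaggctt
C5AR2: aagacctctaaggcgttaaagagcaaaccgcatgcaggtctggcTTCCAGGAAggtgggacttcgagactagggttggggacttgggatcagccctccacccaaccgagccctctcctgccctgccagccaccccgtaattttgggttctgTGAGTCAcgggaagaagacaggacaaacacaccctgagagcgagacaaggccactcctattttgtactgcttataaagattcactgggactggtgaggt

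C4BPA and the C5 entry picked for its match each held the HNF1 motif, a liver factor motif. It was found in 0.792% of all 35116 promoters, which were searched over their first bases after the start as well. The C5AR2 entry, picked in the same way, held a STAT match, found in 1.15% of all promoters, and an AP-1 match, found in 7.71%. An entry picked for its match cannot be set against these shares. C8A and CD55 held none of the 8 motifs in these windows. Elsewhere among the genes, C/EBP matches, found in 10.5% of all promoters, were present in C1R, C6, CD59, MBL2 and VTN, STAT matches in C1R, CFB and VTN, and AP-1 matches in CD59 and C3AR1. None of the 23 genes matched CRE (1.85% of all promoters), HNF4 (0.384%), the xenobiotic core (5.51%) or NF-kappaB (1.85%). A match is a description of the letters only.

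Each treatment was compared with vehicle, and all 19 comparisons share the same 3 vehicle libraries. Wortmannin moved the complement genes mostly upwards, whereas the top doses of ginger, Scutellariae and Coptidis moved most of them downwards and raised a small set that included CD55 and CD59. With wortmannin, 16 of the 28 tested genes rose and 1 fell, where 16.2% of all 16641 genes tested were called higher and 16% lower (Benjamini-Hochberg adjusted p under 0.05, edgeR's quasi-likelihood test). With Coptidis at 210 ug/mL, 5 rose and 21 fell, against 34.8% of all genes higher and 34.5% lower. Scutellariae at 500 ug/mL gave 5 higher and 19 lower (24.7% and 25.5% of all genes), fresh ginger at 500 ug/mL gave 3 higher and 18 lower (23.5% and 22.5%), and dried ginger at 500 ug/mL gave 3 higher and 15 lower (21.5% and 20.9%). Median log2 changes of the 28 genes were 0.26 with wortmannin, -0.76 with Coptidis at 210 ug/mL, and -0.35, -0.23 and -0.34 with fresh ginger, dried ginger and Scutellariae at 500 ug/mL, beside 0.02, -0.003, -0.001, -0.004 and 0.01 over all genes tested. C5AR2 passed the filter on low counts through Coptidis at 210 ug/mL alone, and C5AR1 through the groups in which it was high, so both had to differ somewhere.

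**Figure D1:**
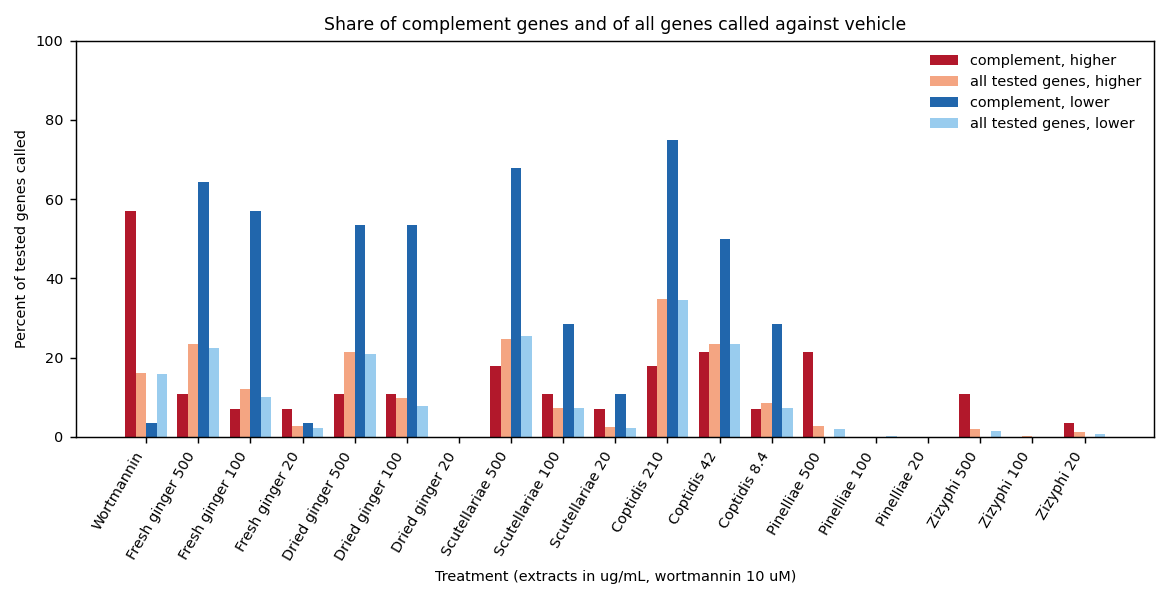
Percent of the 28 tested complement genes and of all 16641 tested genes called higher or lower than vehicle in each of the 19 treatments (bars). For wortmannin 16 complement genes were higher and 1 lower, and for Coptidis at 210 ug/mL 5 were higher and 21 lower.

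At intermediate doses, Coptidis at 42 ug/mL gave 6 higher, both C5a receptors among them, and 14 lower (23.4% and 23.5% of all genes). The receptors were tested only because they were high in some groups, so their calls are a description. At 100 ug/mL, fresh ginger gave 2 and 16 (12.1% and 10.2%), dried ginger 3 and 15 (9.76% and 7.75%) and Scutellariae 3 and 8 (7.27% and 7.34%). At the lowest doses, Coptidis at 8.4 ug/mL gave 2 higher and 8 lower (8.58% and 7.39%), Scutellariae at 20 ug/mL 2 and 3 (2.57% and 2.17%) and fresh ginger at 20 ug/mL 2 and 1 (2.75% and 2.35%). Dried ginger at 20 ug/mL called 0 complement genes in either direction (0.024% and 0.0601% of all genes). There, 6 complement genes had an unadjusted p under 0.05 in edgeR and DESeq2 called 0.

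**Figure D2:**
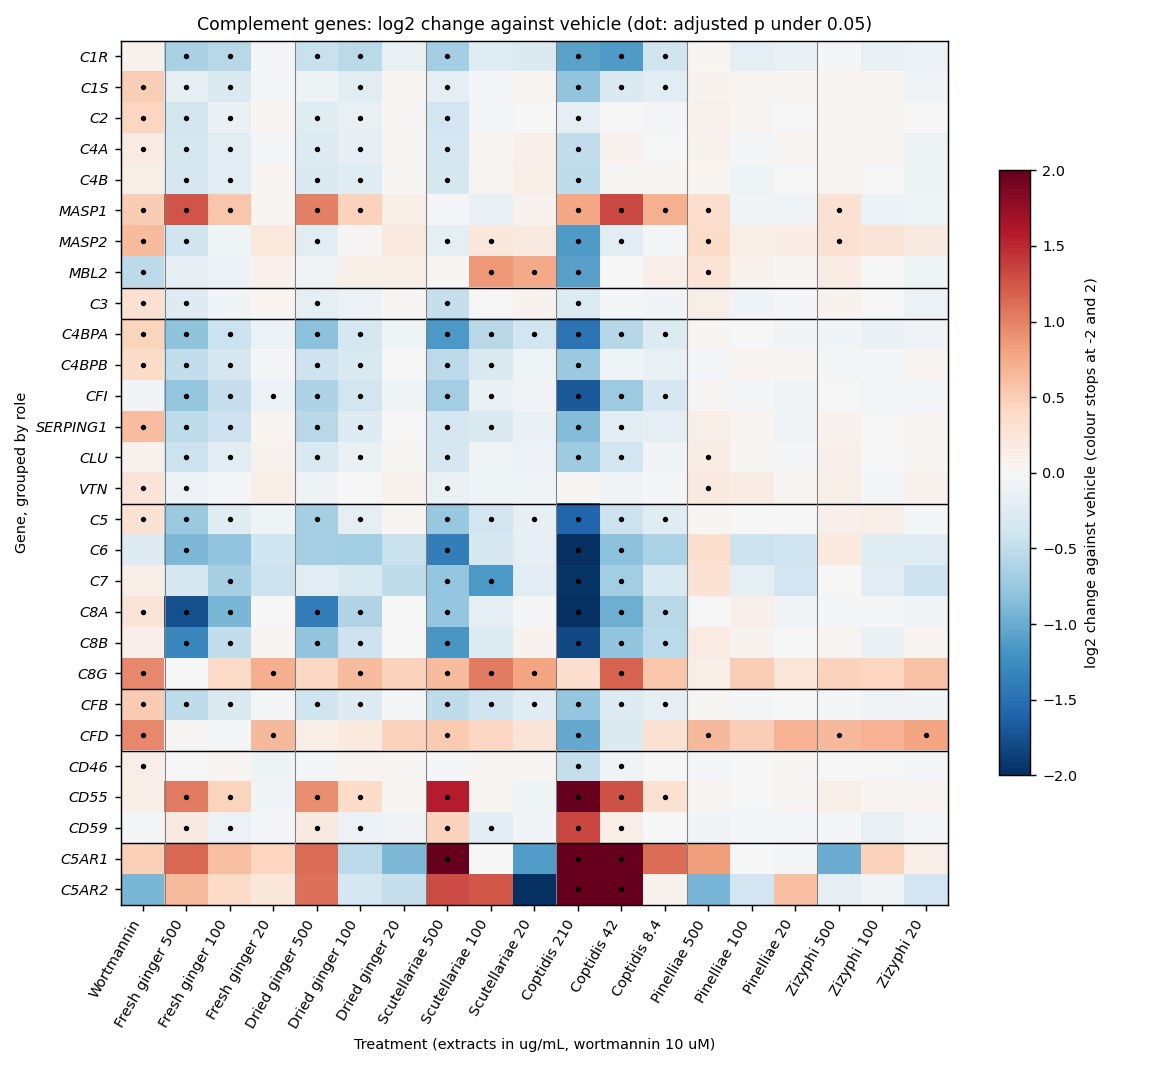
Log2 change against vehicle of the 28 tested complement genes (rows) in the 19 treatments (columns), with a dot where the adjusted p was under 0.05 and the colour scale stopping at 2 in either direction. C8A, C6 and C7 were lowest and C5AR1, C5AR2 and CD55 highest in the Coptidis 210 ug/mL column.

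Among the recognition proteins and early proteases, the members went in different directions. MASP1, a protease of the lectin pathway, stood at 6.63, 5.96 and 6.65 CPM in the vehicle libraries. It read 14.5, 16.8 and 14.6 CPM with fresh ginger at 500 ug/mL, 12.9, 12.9 and 13 with dried ginger at 500 ug/mL, and 15.3, 16.8 and 16.1 with Coptidis at 42 ug/mL. All of these libraries were above all vehicle libraries, and the log2 changes were 1.25 ± 0.0846 (SE; adjusted p = 7.62e-18), 1.01 ± 0.0854 (adjusted p = 2.31e-14) and 1.32 ± 0.0837 (adjusted p = 6.8e-19). With Coptidis at 210 ug/mL MASP1 read 9.86, 11.9 and 11.2 CPM (log2 change 0.77, adjusted p = 4.46e-11), a level whose difference from the 8.4 ug/mL group (9.96, 10.1 and 11.4 CPM) was 0.06 on the log2 scale with adjusted p = 0.535. Scutellariae at 500 ug/mL left it among the vehicle values at 6.35, 5.82 and 6.44 CPM (log2 change -0.05, adjusted p = 0.719), and the direct contrast of fresh ginger with Scutellariae at 500 ug/mL was 1.3 (adjusted p = 1.04e-17).

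MASP2, the lectin pathway protease that cleaves C4, read 15.4, 14.2 and 13.7 CPM in vehicle, 22.4, 22.9 and 22.0 CPM with wortmannin and 7.15, 6.97 and 5.58 CPM with Coptidis at 210 ug/mL. The 3 groups did not overlap. The log2 changes were 0.63 ± 0.0740 (adjusted p = 1.38e-09) and -1.13 ± 0.0872 (adjusted p = 1.82e-16). It fell less with fresh ginger at 500 ug/mL (log2 change -0.41, adjusted p = 4.22e-05), and its fall with Scutellariae at 500 ug/mL (-0.19, adjusted p = 0.047) was lost with DESeq2, with RLE scaling, without a filter and on leaving out any library of the pair of groups except vehicle replicate 3 (-0.20 to -0.14, adjusted p up to 0.208).

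MBL2, the lectin that recognises sugars on microbes, had its highest levels at the lower Scutellariae doses. Vehicle libraries read 13.1, 11.6 and 12.9 CPM, those with Scutellariae at 20 ug/mL 21.2, 22.1 and 20.3, those at 100 ug/mL 22.6, 24.6 and 21.2, and those at 500 ug/mL 12.8, 12.7 and 12.8 CPM. The 2 lower doses lay wholly above vehicle and the top dose lay within it. Log2 changes were 0.75 ± 0.0784 (adjusted p = 8.13e-10), 0.86 ± 0.0779 (adjusted p = 2.22e-12) and 0.03 (adjusted p = 0.805), and the top dose was below the bottom dose by a log2 difference of -0.73 (adjusted p = 3.86e-11). MBL2 was the complement gene that fell with wortmannin, to 8.38, 8.57 and 9.05 CPM (log2 change -0.53, adjusted p = 2.68e-06), and it fell to 5.72, 5.40 and 6.59 CPM with Coptidis at 210 ug/mL (-1.09, adjusted p = 7.61e-15).

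**Figure D3:**
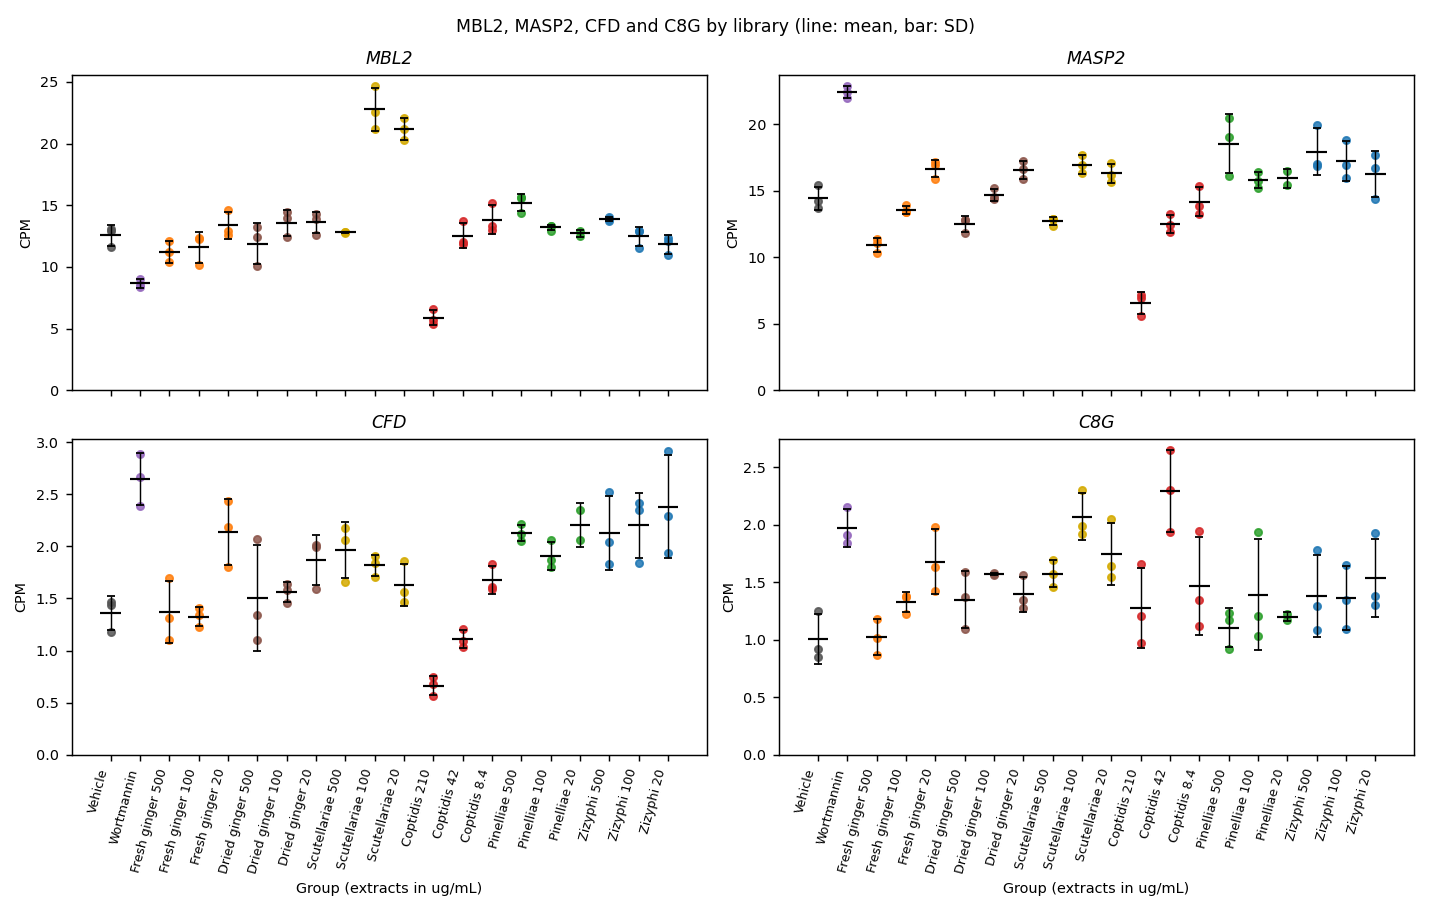
CPM of MBL2, MASP2, CFD and C8G in every library of the 20 groups (points), with the group mean (line) and SD (bar). MBL2 was near 22 CPM with Scutellariae at 20 and 100 ug/mL and near 13 CPM in vehicle and with Scutellariae at 500 ug/mL.

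C1R and C1S are the proteases of the C1 complex. C1R read 4.89, 5.05 and 4.88 CPM in vehicle, 2.34, 1.97 and 2.46 CPM with Coptidis at 42 ug/mL and 2.41, 2.72 and 1.90 CPM at 210 ug/mL. Both Coptidis groups lay below vehicle without overlap and overlapped each other, with log2 changes of -1.13 ± 0.123 (adjusted p = 6.16e-11) and -1.07 ± 0.122 (adjusted p = 6.01e-11). C1S changed by a log2 of -0.78 with Coptidis at 210 ug/mL (adjusted p = 7.76e-17) and by 0.49 with wortmannin (adjusted p = 1.26e-10). C1R overlaps C1RL on the same strand and C1S overlaps genes on both strands, and the strand setting used for counting is not given in the sources used here.

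C2, which forms the convertase with C4, stood at 150 ± 3.19 CPM in vehicle and rose with wortmannin to 201 ± 4.43 CPM (SD, n = 3; log2 change 0.43, adjusted p = 2.93e-14). It fell with Scutellariae at 500 ug/mL to 115 ± 3.30 CPM (-0.39, adjusted p = 1.85e-13). C2 and CFB overlap on the same strand of chromosome 6, so their values are uncertain where reads could belong to either. C4A and C4B, the copies of C4, are nearly identical in sequence and their separate values are uncertain too. C4A read 253, 238 and 262 CPM and C4B 278, 272 and 279 CPM in vehicle, and 170, 178 and 187 and 181, 200 and 201 CPM with Coptidis at 210 ug/mL. Summed into 1 row, C4 changed by a log2 of -0.50 with Coptidis at 210 ug/mL (adjusted p = 1.67e-12), -0.35 with fresh ginger (8.79e-08), -0.32 with Scutellariae (3.98e-07) and -0.28 with dried ginger (7.57e-06), each at 500 ug/mL, and 0.14 with wortmannin (0.0246).

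C3, the protein on which all 3 pathways meet, read 1718, 1667 and 1789 CPM in vehicle. With wortmannin it read 2117, 2111 and 2141 CPM, above vehicle without overlap (log2 change 0.30 ± 0.0491, adjusted p = 2.61e-06). With Scutellariae at 500 ug/mL it read 1250.3, 1262.5 and 1248 CPM, with Coptidis at 210 ug/mL 1373, 1444 and 1441 CPM, and with fresh ginger at 500 ug/mL 1452, 1475 and 1423 CPM. All these libraries were below every vehicle library. The log2 changes were -0.46 (adjusted p = 2.65e-11), -0.28 (adjusted p = 1.73e-06) and -0.25 (adjusted p = 2.96e-05), and dried ginger at 500 ug/mL gave -0.19 (adjusted p = 0.00172). C3 was lower with Scutellariae at 500 ug/mL than with Coptidis at 210 ug/mL by direct contrast, with a Coptidis minus Scutellariae log2 difference of 0.18 (adjusted p = 0.00156).

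Both alternative pathway proteases rose with wortmannin. CFB stood at 111 ± 3.61 CPM in vehicle and 157 ± 2.15 CPM in wortmannin libraries (SD, n = 3; log2 change 0.51, adjusted p = 9.27e-17). CFB fell with Coptidis at 210 ug/mL to 64.5 ± 2.34 CPM (-0.78, adjusted p = 7.61e-25), and it also fell with Scutellariae at 20 ug/mL, where few complement genes were called (-0.24, adjusted p = 2.86e-06). CFD, the protease that activates CFB, was a low gene at 1.46, 1.18 and 1.44 CPM in vehicle. Its log2 change was above 0 in 16 of the 19 comparisons with vehicle and was called higher in 6. Each rise is thus read against a vehicle level that most groups exceeded. Wortmannin libraries read 2.88, 2.38 and 2.66 CPM, all above vehicle (log2 change 0.96 ± 0.167, adjusted p = 7.5e-06). Coptidis at 210 ug/mL gave 0.678, 0.749 and 0.566 CPM, all below vehicle (-1.03 ± 0.213, adjusted p = 3.4e-05). Scutellariae at 500 ug/mL gave 1.66, 2.07 and 2.17 CPM (0.53 ± 0.176, adjusted p = 0.00997), a call lost without Scutellariae replicate 3 or vehicle replicate 2 (0.43 to 0.45, adjusted p up to 0.0657).

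The soluble regulators fell together at the top doses. All 6 of those tested fell with Scutellariae and fresh ginger at 500 ug/mL, and 5 of 6 fell with dried ginger at 500 ug/mL and Coptidis at 210 ug/mL. Of all genes tested, 25.5%, 22.5%, 20.9% and 34.5% were called lower in these comparisons, in that order. CFI, the protease that inactivates C3b and C4b, read 177, 173 and 182 CPM in vehicle. It read 103, 109 and 99.6 CPM with fresh ginger at 500 ug/mL, 116, 118 and 115 with dried ginger at 500 ug/mL, 108, 111 and 108 with Scutellariae at 500 ug/mL and 55.6, 54.4 and 56.9 with Coptidis at 210 ug/mL. No treated library reached the vehicle values, and Coptidis was lowest. The log2 changes were -0.78, -0.61, -0.70 and -1.67 ± 0.0364 (adjusted p = 7.46e-39 for Coptidis). CFI was also lower at 42 ug/mL (109, 106 and 106 CPM; -0.73, adjusted p = 9.63e-24) and at 8.4 ug/mL of Coptidis (141, 144 and 138 CPM; -0.33, adjusted p = 1.76e-10).

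C4BPA is the main chain of the C4b-binding protein, a plasma inhibitor of the C3 convertase formed by C4 and C2, and C4BPB is its other chain. C4BPA read 21.3, 21.2 and 23.7 CPM in vehicle and 30.5, 31.7 and 28.3 CPM with wortmannin (log2 change 0.45, adjusted p = 3.59e-06). It read 9.87, 9.71 and 10.3 CPM with Scutellariae at 500 ug/mL and 8.66, 8.12 and 7.07 CPM with Coptidis at 210 ug/mL. Wortmannin libraries were above and the others below every vehicle library, and the last 2 groups fell by 1.15 (adjusted p = 2.38e-16) and by 1.47 (adjusted p = 1.86e-20) on the log2 scale. Fresh ginger gave 13.5, 12.8 and 11.6 CPM and dried ginger 11.1, 11.9 and 14.7 CPM at 500 ug/mL, with a log2 change of -0.81 in each case (adjusted p = 1.02e-11 and 8.47e-12). C4BPB changed by a log2 of 0.37 with wortmannin (adjusted p = 2.91e-06) and -0.74 with Coptidis at 210 ug/mL (adjusted p = 3.76e-14).

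SERPING1, the inhibitor of C1R, C1S and the MASPs, changed by a log2 of 0.61 with wortmannin (adjusted p = 2.69e-08) and -0.86 with Coptidis at 210 ug/mL (adjusted p = 1.64e-11). CLU, or clusterin, which blocks pore assembly, fell from 223 ± 10.9 to 136 ± 3.18 CPM with Coptidis at 210 ug/mL (SD, n = 3 each; -0.72, adjusted p = 2.42e-21). VTN, or vitronectin, another inhibitor of pore assembly, was not called there, at 97.9 ± 2.79 CPM in vehicle and 99.9 ± 1.82 CPM with Coptidis (SD, n = 3 each), but rose with wortmannin (0.26, adjusted p = 1.09e-06).

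The pore proteins held the deepest falls. With Coptidis at 210 ug/mL, C5, C6, C7, C8A and C8B all fell, and the median log2 change over the 6 tested pore genes was -1.88. C5 read 159, 160 and 153 CPM in vehicle and 48.8, 54.1 and 53.6 CPM with Coptidis at 210 ug/mL, a log2 change of -1.59 ± 0.0543 (adjusted p = 1.52e-30). It read 96.3, 94.3 and 92.5 CPM with fresh ginger, 92.7, 103 and 101 with dried ginger and 92, 94.2 and 91.8 with Scutellariae, each at 500 ug/mL. These 3 groups overlapped each other and lay below vehicle, with log2 changes of -0.74 (adjusted p = 3.57e-17), -0.67 (adjusted p = 1.29e-15) and -0.76 (adjusted p = 7.85e-18). Wortmannin raised C5 to 196, 193 and 186 CPM (0.29, adjusted p = 8.13e-06), and Coptidis at 8.4 ug/mL gave 132, 137 and 129 CPM (-0.25, adjusted p = 0.000319).

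C8A and C8B code for the alpha and beta chains of C8 and lie close together on chromosome 1 (chr1:56854806-56918221 and chr1:56929210-56966140, GRCh38). C8A read 12, 12.3 and 11.4 CPM in vehicle and 2.00, 1.14 and 1.46 CPM with Coptidis at 210 ug/mL, a fall by 2.95 ± 0.107 on the log2 scale (SE, adjusted p = 1.95e-29). It read 3.72, 3.27 and 3.57 CPM with fresh ginger, 4.92, 4.15 and 4.59 with dried ginger and 6.79, 7.52 and 6.60 with Scutellariae, each at 500 ug/mL. None of these groups overlapped vehicle, and fresh ginger lay below Scutellariae. The log2 changes were -1.75 (adjusted p = 6.28e-22), -1.39 (adjusted p = 6.45e-19) and -0.77 (adjusted p = 2.18e-11), and the direct contrast of fresh ginger with Scutellariae gave -0.98 (adjusted p = 1.96e-11). At intermediate doses C8A read 6.25, 6.38 and 6.23 CPM with fresh ginger at 100 ug/mL and 5.80, 6.65 and 5.76 CPM with Coptidis at 42 ug/mL, and at 8.4 ug/mL of Coptidis it was still below vehicle at 7.91, 8.44 and 7.92 CPM (-0.56, adjusted p = 6.58e-07).

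C8B read 4.39, 3.76 and 5.25 CPM in vehicle, 1.75, 2.12 and 1.54 CPM with fresh ginger at 500 ug/mL, 1.74, 2.44 and 1.81 CPM with Scutellariae at 500 ug/mL and 1.17, 1.38 and 1.29 CPM with Coptidis at 210 ug/mL. Each treated group lay below vehicle, with log2 changes of -1.31 ± 0.137 (adjusted p = 1.48e-11), -1.16 ± 0.133 (adjusted p = 1.99e-10) and -1.80 ± 0.144 (adjusted p = 7.24e-16). C8G, the small gamma chain of C8, was not called at the top doses of ginger and Coptidis. Its vehicle mean of 1.01 CPM was the lowest of the 20 groups, the others lying between 1.02 and 2.29 CPM, so each change is read against a low vehicle level. It read 0.848, 1.25 and 0.921 CPM in vehicle, 2.65, 1.93 and 2.30 CPM with Coptidis at 42 ug/mL, 2.30, 1.99 and 1.92 CPM with Scutellariae at 100 ug/mL and 2.15, 1.84 and 1.91 CPM with wortmannin. All of these were above vehicle, with log2 changes of 1.18 ± 0.212 (adjusted p = 6.17e-06), 1.04 ± 0.214 (adjusted p = 0.000339) and 0.96 ± 0.216 (adjusted p = 0.000364).

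C6 and C7, which join the growing pore before C8, were at low levels. C6 read 0.925, 0.949 and 1.00 CPM in vehicle and 0.151, 0.158 and 0.162 CPM with Coptidis at 210 ug/mL, a log2 change of -2.58 ± 0.419 (adjusted p = 3.98e-07). It also fell with Scutellariae at 500 ug/mL (-1.38 ± 0.355, adjusted p = 0.00101). C7 read 1.27, 1.59 and 1.92 CPM in vehicle, 0.376, 0.433 and 0.404 CPM with Coptidis at 210 ug/mL and 0.575, 0.811 and 0.784 CPM with Scutellariae at 100 ug/mL. Neither treated group overlapped vehicle, and the log2 changes were -1.97 ± 0.261 (adjusted p = 3.88e-09) and -1.14 ± 0.232 (adjusted p = 0.000264). With Coptidis at 42 ug/mL, C6 changed by -0.81 (adjusted p = 0.0375), a call lost on leaving out any of 5 of the 6 libraries (-0.89 to -0.39, adjusted p up to 0.357, the last without replicate 1 of that group).

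**Figure D4:**
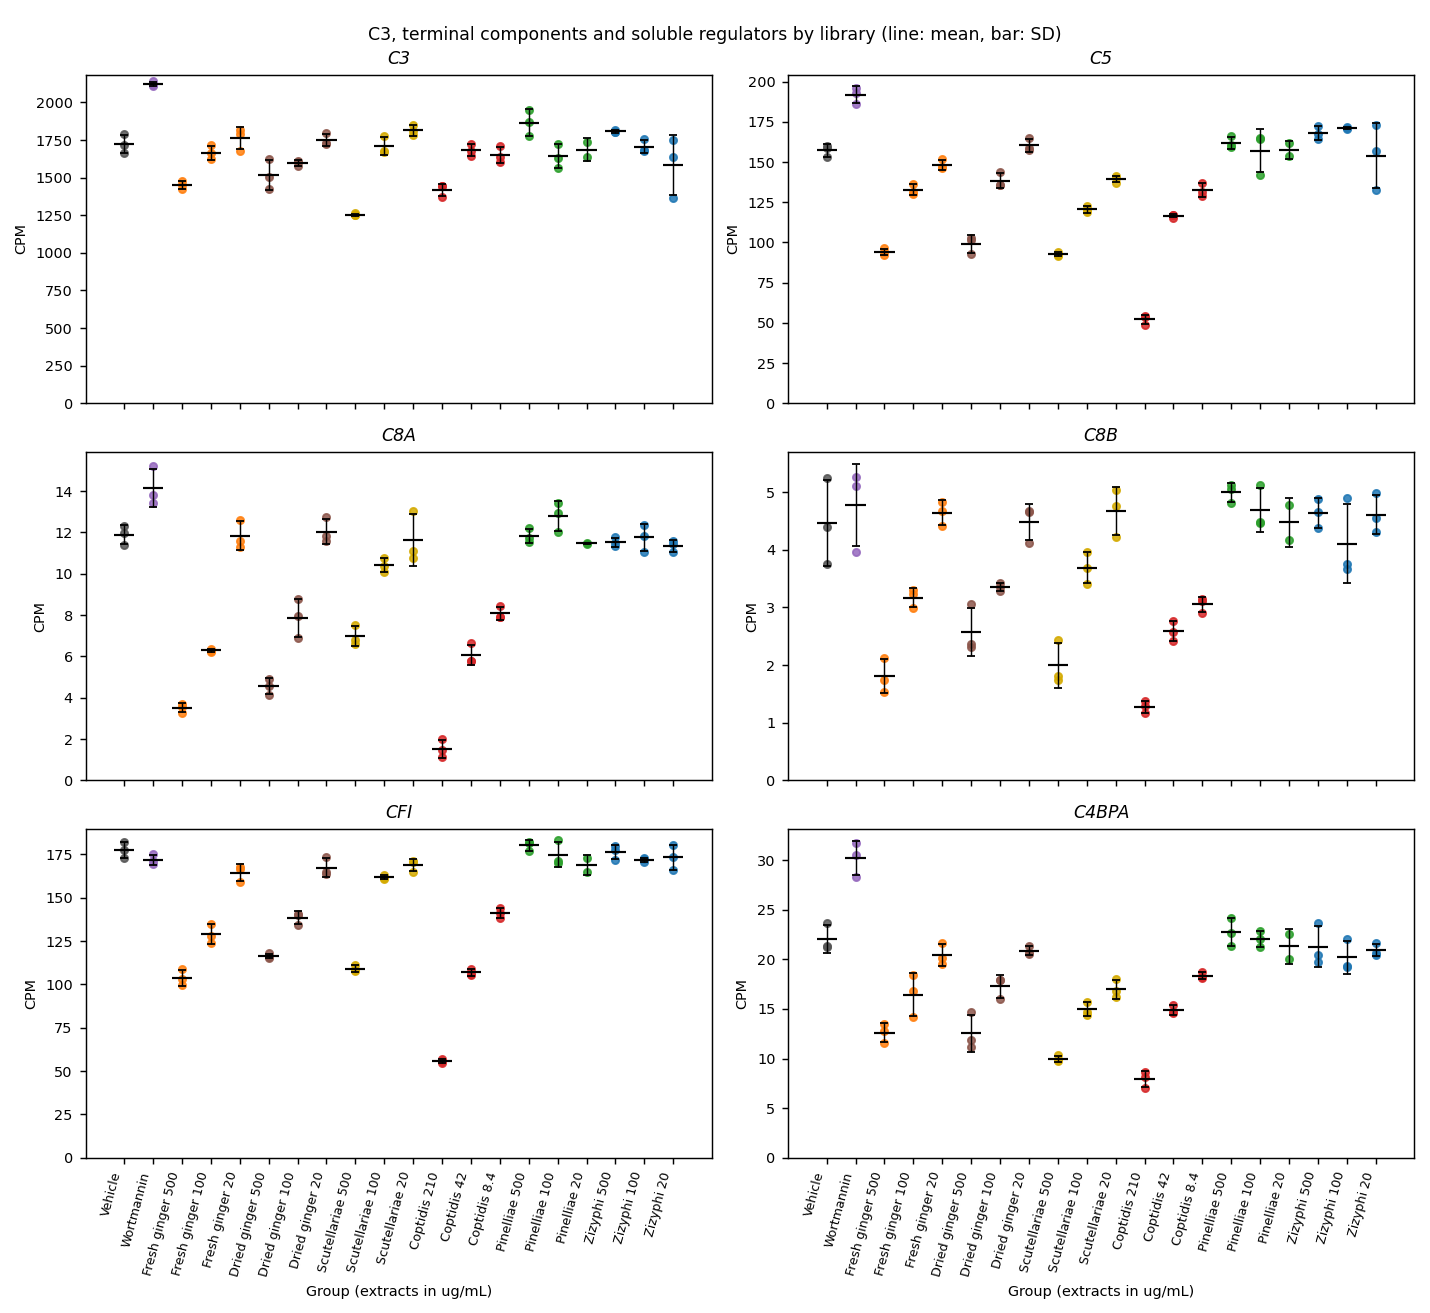
CPM of C3, C5, C8A, C8B, CFI and C4BPA in every library of the 20 groups (points), with the group mean (line) and SD (bar). C8A fell from 11.4 to 12.3 CPM in vehicle to 1.14 to 2.00 CPM with Coptidis at 210 ug/mL, and all wortmannin libraries were above vehicle for C3.

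The 3 membrane regulators differed in direction with Coptidis at 210 ug/mL. CD55, which breaks up C3 convertases on host cells, read 12.5, 13.9 and 12.3 CPM in vehicle. It read 25.3, 26.4 and 27.9 CPM with fresh ginger at 500 ug/mL, 24.8, 23.9 and 25.3 with dried ginger at 500 ug/mL, 38.5, 37.7 and 39.1 with Scutellariae at 500 ug/mL and 74.9, 78.3 and 73.9 with Coptidis at 210 ug/mL. Every one of these libraries exceeded every vehicle library, and the group means were 2.06, 1.91, 2.98 and 5.87 times the vehicle mean. The log2 changes were 1.04 ± 0.0631 (adjusted p = 1.33e-19), 0.93 ± 0.0632 (adjusted p = 9.82e-18), 1.57 ± 0.0611 (adjusted p = 2.11e-27) and 2.55 ± 0.0591 (adjusted p = 1.05e-37).

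CD55 stepped up over the Coptidis doses, from 15.3, 16.3 and 16.2 CPM at 8.4 ug/mL (log2 change 0.31, adjusted p = 0.00068) to 31, 32.1 and 30.8 CPM at 42 ug/mL (1.28, adjusted p = 2.33e-23). With Scutellariae, by contrast, the 20 and 100 ug/mL means were 12.2 ± 1.43 and 13.4 ± 0.523 CPM (SD, n = 3 each), near vehicle at 12.9 ± 0.840. The direct contrast of Coptidis at 210 ug/mL with Scutellariae at 500 ug/mL was 0.98 (adjusted p = 7.59e-22), and that of fresh ginger with Scutellariae at 500 ug/mL was -0.53 (adjusted p = 6.1e-11). Wortmannin libraries read 14.7, 13.9 and 13.5 CPM, overlapping the vehicle range, and CD55 was not called there.

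CD59, which stops C9 from joining the pore, read 136, 135 and 128 CPM in vehicle, 349, 327 and 335 CPM with Coptidis at 210 ug/mL and 183, 179 and 189.6 CPM with Scutellariae at 500 ug/mL. Both groups were wholly above vehicle, with log2 changes of 1.34 ± 0.0350 (adjusted p = 1.78e-35) and 0.47 ± 0.0352 (adjusted p = 3.12e-16). Fresh and dried ginger at 500 ug/mL gave 0.18 each (adjusted p = 3.46e-05 and 2.69e-05). At 100 ug/mL the sign was the other way: CD59 read 114, 116 and 115 CPM with Scutellariae (-0.21, adjusted p = 1.44e-05), and fell by 0.12 with fresh ginger (adjusted p = 0.00878) and by 0.11 with dried ginger (adjusted p = 0.0191) on the log2 scale, the last being lost without vehicle replicate 1 or 2 or dried ginger replicate 2 or 3 (adjusted p up to 0.0901). CD59 overlaps another gene on its strand.

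CD46, the membrane cofactor for CFI, read 245, 243 and 243 CPM in vehicle and 173, 173 and 178 CPM with Coptidis at 210 ug/mL, a fall without overlap (log2 change -0.48 ± 0.0338, adjusted p = 6.78e-18). It read 269, 261 and 269 CPM with wortmannin (0.13, adjusted p = 0.00185). CD46, CD55, C4BPA and C4BPB lie in the same region of chromosome 1, at chr1:207752057-207795513, chr1:207321376-207386804, chr1:207104262-207144972 and chr1:207088842-207099993 (GRCh38, GENCODE release 29). CR2 and CR1 lie between CD55 and CD46. With Coptidis at 210 ug/mL, CD55 rose and CD46, C4BPA and C4BPB fell.

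The C5a receptors were nearly silent in vehicle. C5AR1, the signalling receptor, had 1, 5 and 3 counts in the vehicle libraries, 40, 43 and 36 with Scutellariae at 500 ug/mL, 39, 37 and 41 with Coptidis at 42 ug/mL and 137, 149 and 154 with Coptidis at 210 ug/mL. Each treated group lay far above vehicle. The ratio of counts, scaled for library size, was 13.8 with Scutellariae (95% counting interval 7.05 to 31), 13.3 with Coptidis at 42 ug/mL (6.76 to 29.8) and 49.3 with Coptidis at 210 ug/mL (25.7 to 108.5). These ratios are a description, since the gene was tested only because it was high in such groups. Counting intervals cover counting error only.

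C5AR2, the second C5a receptor, had 0, 3 and 1 counts in vehicle, 4, 3 and 3 with Scutellariae at 500 ug/mL, 5, 7 and 5 with Coptidis at 42 ug/mL and 232, 205 and 183 with Coptidis at 210 ug/mL. Both Coptidis groups lay above every vehicle library. The ratio to vehicle was 4.34 at 42 ug/mL (95% counting interval 1.42 to 17.7), a call with adjusted p = 0.018 that was lost on leaving out any of 3 of the 6 libraries (adjusted p up to 0.105). At 210 ug/mL, the group through which the gene passed the filter, the ratio to vehicle was 156 (60.7 to 575) and the ratio to Scutellariae at 500 ug/mL was 59.6 (32.2 to 125), both as a description. C5AR1 differed from Scutellariae by a smaller ratio of 3.56 (2.90 to 4.39). The 2 receptor genes are neighbours on chromosome 19, at chr19:47290023-47322066 and chr19:47332147-47347327 (GRCh38). Both receptors are known from myeloid cells. Of 9 leukocyte markers 4 were tested, and with Coptidis at 210 ug/mL 2 were called higher and 2 lower, where 34.8% and 34.5% of all genes were. ITGAM, among those called higher, passed the filter on low counts through that group alone. It had to differ and is given as a level only. CD68 went from 29.2 to 78.2 CPM, ITGAM from 0.0133 to 0.561 CPM, CD14 from 2.07 to 0.938 CPM and LYZ from 1372 to 1070.1 CPM. The 9 markers summed to 1399 to 1407 CPM in vehicle and 1093 to 1180 CPM with Coptidis at 210 ug/mL, with PTPRC at no more than 3 counts, and their part in the receptor result was not tested.

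**Figure D5:**
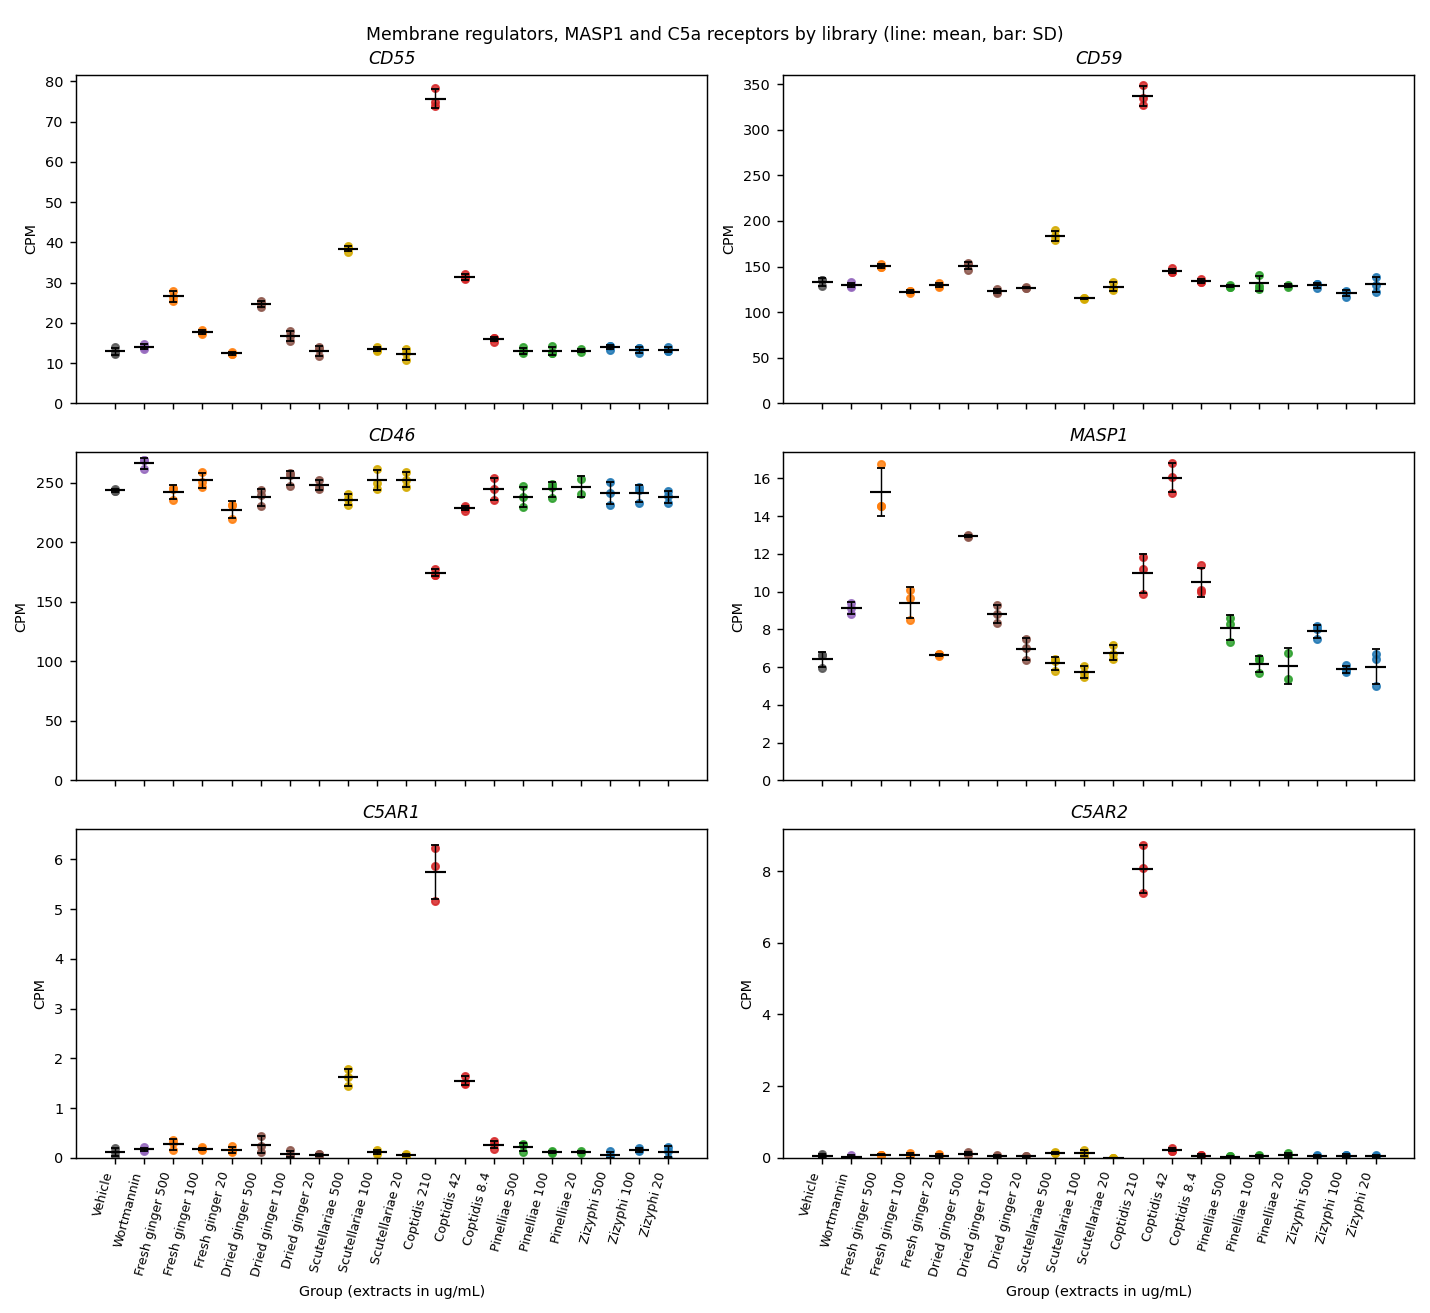
CPM of CD55, CD59, CD46, MASP1, C5AR1 and C5AR2 in every library of the 20 groups (points), with the group mean (line) and SD (bar). CD55 stepped up over the Coptidis doses to 73.9 to 78.3 CPM, and C5AR2 was highest in the Coptidis 210 ug/mL libraries.

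Top and bottom doses of each extract were then compared, a contrast that leaves out the vehicle. With Coptidis (210 against 8.4 ug/mL) 4 complement genes were higher and 21 lower at the top dose (33% and 32.8% of all genes). The 500 against 20 ug/mL contrast gave 4 and 20 for fresh ginger (24.4% and 23.6%), 4 and 19 for Scutellariae (24.5% and 25.4%) and 4 and 17 for dried ginger (20.9% and 20.1%). Those called higher include the C5a receptors, 2 with Coptidis, 2 with Scutellariae and 1 with dried ginger. Both receptors were tested only because they were high in some groups, so these calls and their ratios are a description. In the Scutellariae contrast C5AR2 had 10 counts against 0. C8A differed by -2.39 (adjusted p = 2.15e-24), -1.75 (adjusted p = 6.66e-22), -0.74 (adjusted p = 9.07e-11) and -1.40 (adjusted p = 3.55e-19) in that order. CD55 differed by 2.25, 1.10, 1.66 and 0.91 on the log2 scale in the same order (adjusted p = 1.49e-35, 1.61e-20, 3.39e-28 and 1.69e-17). C5AR1 had 440 counts in all at the Coptidis top dose and 19 at the bottom dose, a ratio of 22.2 (95% counting interval 14.0 to 37.2). With Scutellariae it had 119 and 4, a ratio of 31.4 (12 to 117).

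Fresh and dried ginger differed in few of these genes. At 500 ug/mL 1 gene was called, CFI, which was lower with fresh ginger by -0.17 ± 0.0352 (log2, adjusted p = 0.00412), where 0.961% of all genes were called higher and 0.871% lower. C8A differed by -0.36 with adjusted p = 0.0782. At 100 ug/mL and 20 ug/mL 0 complement genes were called by edgeR and by DESeq2 (0.324% of all genes higher and 0.0541% lower at 100 ug/mL, and 0.0421% and 0.00601% at 20 ug/mL, by edgeR), with 4 and 2 at an unadjusted p under 0.05. Coptidis at 210 ug/mL against Scutellariae at 500 ug/mL called 8 higher and 19 lower (30.9% and 28.7% of all genes). The 8 include both C5a receptors, which were tested only because they were high in some groups. Fresh ginger against Scutellariae at 500 ug/mL called 3 higher and 7 lower (18.8% and 16.1%). In that contrast MASP1, C4BPA and C3 were higher with fresh ginger, and C5AR1, C8A, C8G, CD55, CFD, CD59 and MASP2 were lower. C5AR1 was tested only because it was high in some groups, Scutellariae at 500 ug/mL among them, so its call is a description. Fresh ginger and Scutellariae had equal doses, whereas Coptidis was given at 210 ug/mL, so its differences from Scutellariae are also ones of dose. The first part of the sample code differs between these extracts as well, so extract and code cannot be told apart in either contrast.

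Pinelliae and Zizyphi changed few complement genes. Pinelliae at 500 ug/mL raised 6 and lowered 0 (2.64% and 1.93% of all genes). They were CFD at 2.05, 2.12 and 2.21 CPM (log2 change 0.64, adjusted p = 0.0191), MASP2 (0.36, adjusted p = 0.00231), MASP1 at 8.32, 7.36 and 8.63 CPM (0.34, adjusted p = 0.0191), MBL2 (0.28), VTN (0.20) and CLU (0.15). Zizyphi at 500 ug/mL raised 3 and lowered 0 (2.09% and 1.53%): CFD at 2.04, 2.52 and 1.83 CPM (0.65, adjusted p = 0.0197), MASP2 (0.31, adjusted p = 0.011) and MASP1 at 8.19, 7.51 and 8.02 CPM (0.30, adjusted p = 0.0439). Without vehicle replicate 2, 2 genes were called with Pinelliae and 0 with Zizyphi, and without replicate 3 of Pinelliae 500 ug/mL 1 was called. With Zizyphi at 500 ug/mL, MASP1 was lost on leaving out any of the 6 libraries (adjusted p up to 0.25). MASP2 was lost there with 3 and CFD with 2 of them. With Pinelliae at 500 ug/mL, MBL2 was lost on leaving out any of 5 libraries (adjusted p up to 0.233), MASP1 with 3, CFD with 2 and MASP2 with 1. Zizyphi at 20 ug/mL raised CFD alone and lowered 0 (1.23% and 0.763% of all genes), at 2.91, 1.94 and 2.29 CPM (0.79, adjusted p = 0.0103). Without its replicate 1, which stood apart from its group, no complement gene was called. The log2 change of CFD was above 0 in 16 of the 19 comparisons with vehicle, so these rises are read against a vehicle level that most groups exceeded.

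Pinelliae at 100 and 20 ug/mL and Zizyphi at 100 ug/mL gave 0 calls in edgeR. The shares of all genes called higher and lower were 0.0841% and 0.12%, 0.00601% and 0%, and 0.132% and 0.0961%. There, 3, 1 and 4 complement genes had an unadjusted p under 0.05, and DESeq2 called 0, 0 and 1. Between top and bottom doses, Pinelliae had 2 complement genes higher and 0 lower (1.2% and 0.703% of all genes), MASP1 (0.41, adjusted p = 0.0128) and CLU (0.17, adjusted p = 0.0319). Zizyphi had 2 higher and 0 lower (4.39% and 2.82%), MASP1 (0.39, adjusted p = 0.00506) and C3 (0.19, adjusted p = 0.0126). In each of these dose contrasts 1 left-out library changed the count, as given with the processing.

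Of 30 other complement genes, such as the C1q chains, properdin and the leukocyte receptors, 10 had enough counts to be tested. With Coptidis at 210 ug/mL 3 were called higher and 5 lower, against 34.8% and 34.5% of all genes. The 3 called higher passed the filter on low counts through that group alone, so they had to differ and are given as levels only. ITGAM and CD93, both found on myeloid cells, stood at 0.0133 and 0.0128 CPM in vehicle and at 0.561 and 0.546 CPM with Coptidis at 210 ug/mL, and COLEC12, a collectin of the cell surface, at 0.117 and 1.76 CPM. CPN2, a chain of the carboxypeptidase that inactivates C3a and C5a, fell by 1.41 on the log2 scale. With wortmannin 4 rose and 2 fell (16.2% and 16% of all genes), among them ITGB2 (0.51), C1RL (0.48), CPN1 (0.40) and C1QBP (-0.35). Fresh ginger, dried ginger and Scutellariae at 500 ug/mL gave 0 and 4, 1 and 6, and 0 and 4 higher and lower, against 23.5% and 22.5%, 21.5% and 20.9%, and 24.7% and 25.5% of all genes.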

How the data were processed

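RNA was read as paired reads of 100 bases from directional libraries in 59 samples. The authors deposited RSEM expected counts per gene. The submitters' processing notes name STAR 2.7.3a, RSEM 1.3.3, Trim Galore 0.6.5, FastQC 0.11.9 and GRCh38. Annotation and strand setting: not given in the sources used here. As 24.44% of nonzero values were not whole, counts were rounded. The deposited table had 267 columns, of which 59 matched these samples by title and 208 were not used. Symbols were matched for 56558 identifiers, and coordinates come from GENCODE 29.

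Groups follow the labels. Genes passing filterByExpr (16641) were scaled by TMM and fitted in 1 edgeR 4.0.16 quasi-likelihood model with 20 group means (R 4.3.3, limma 3.58.1), giving 30 comparisons. Adjusted p-values are Benjamini-Hochberg over all tested genes, two-sided, from edgeR unless DESeq2 1.42.0 is named. The common dispersion was 0.00195 (coefficient of variation 4.41%) with 39 residual degrees of freedom. CPM were computed with TMM-scaled library sizes, and values per kilobase divide them by the summed exon length of the gene. The fit was tested on simulated data. Replicates of a group differed by a mean chi-square per gene of 1.93 to 32.35, so no library was a copy of another. The measure cannot tell separate cultures from separate libraries made of the same RNA.

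Full values are given for members with an absolute log2 change of at least 1 and a call against vehicle, and for C3, C5, C4, CD46, CD55 and CD59, and the others by range and counts. The members and all gene lists were chosen with earlier results of these data known. Fitted fold changes of C5AR1 and C5AR2 depend on the prior count, so ratios of counts with exact 95% intervals are given. Tables and figures were made with Python 3.11.15, pandas 2.3.3 and numpy 2.4.6. Alternatives were RLE scaling, DESeq2, no filter on low counts, only the 2 groups compared, a replicate block, leaving out each library in turn, leaving out the 3 libraries that stood apart, and C4A and C4B summed.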

Additional observations from a re-analysis of the deposited data

Results flagged for a closer look

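CFD, the protease that activates CFB, was called lower with Coptidis at 210 ug/mL and higher with Scutellariae at 500 ug/mL. The CPM values were 0.678, 0.749 and 0.566 with Coptidis at 210 ug/mL, 1.66, 2.07 and 2.17 with Scutellariae at 500 ug/mL and 1.46, 1.18 and 1.44 in vehicle. All Coptidis libraries were below and all Scutellariae libraries above every vehicle library. The log2 change of CFD was above 0 in 16 of the 19 comparisons with vehicle, so a rise is read against a vehicle level that most groups exceeded. The direct contrast of Coptidis minus Scutellariae gave a log2 difference of -1.56 ± 0.202 (SE, adjusted p = 3.38e-09, edgeR's quasi-likelihood test). The Scutellariae call against vehicle was lost without Scutellariae replicate 3 or vehicle replicate 2 (log2 change 0.43 to 0.45, adjusted p up to 0.0657), and Scutellariae at 500 against 20 ug/mL did not call CFD (0.27, adjusted p = 0.194). CFD read 2.04, 2.52 and 1.83 CPM with Zizyphi at 500 ug/mL, which shares its number in the sample code with Coptidis, and 2.05, 2.12 and 2.21 CPM with Pinelliae at 500 ug/mL, which shares it with Scutellariae. The doses of Coptidis and Scutellariae differed, as did their numbers in the sample code, so extract, dose and code cannot be told apart.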

How the results depend on the processing

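Single-gene results were rerun only for the members with full values and only for comparisons with vehicle. Among these, no called change reversed its sign under any alternative run. With RLE size factors, with the replicate block and with C4A and C4B summed, the counts of called complement genes stayed within 1.5 times those reported in all 30 comparisons. Replicate numbers did not pair the libraries: in 0 of 171 pairs of groups did every same-numbered pair correlate above 0.1 (mean correlation 0.004), and the block lost 1 single-gene call, MASP2 with Scutellariae at 500 ug/mL (adjusted p = 0.0546). The counts of calls that moved were all in comparisons with few calls. Pinelliae 500 against 20 ug/mL (2 calls) gave 1 without a filter and 0 with only the 2 groups fitted, and Pinelliae 500 ug/mL against vehicle (6) gave 3 with only the 2 groups. Fresh ginger 20 ug/mL (3) gave 1 with only the 2 groups and 5 without the 3 libraries that stood apart. Fresh against dried ginger at 500 ug/mL (1) gave 2 with DESeq2, 0 with only the 2 groups and 2 without those libraries. Zizyphi 100 ug/mL (0) gave 1 with DESeq2, 2 without a filter, 2 with only the 2 groups and 4 without those libraries. Zizyphi 20 ug/mL (1) gave 0 under DESeq2, with only the 2 groups and without those libraries, and Zizyphi 500 ug/mL (3) gave 1 with DESeq2. Zizyphi 500 against 20 ug/mL (2) gave 4 without a filter, 0 with only the 2 groups and 1 without those libraries. The cause was not tested.

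Leaving out 1 library at a time gave 26 to 26 calls with Coptidis at 210 ug/mL, 22 to 23 with Scutellariae 500 ug/mL, 19 to 22 with fresh ginger 500 ug/mL, 17 to 19 with dried ginger 500 ug/mL and 16 to 17 with wortmannin. It gave 1 to 5 with Pinelliae 500 ug/mL (lowest without its replicate 3), 0 to 1 with Pinelliae 100 ug/mL, 0 to 3 for Pinelliae 500 against 20 ug/mL (0 without replicate 1 or 3 of 500 ug/mL or replicate 1 of 20 ug/mL) and 3 to 5 with Scutellariae 20 ug/mL. It gave 0 to 3 with fresh ginger 20 ug/mL (0 without vehicle replicate 1 or 2 or its own replicate 3), 0 to 1 for fresh against dried ginger at 100 ug/mL and 0 to 4 at 500 ug/mL (4 without dried ginger replicate 2). It gave 0 to 1 with Zizyphi 100 ug/mL, 0 to 4 with Zizyphi 20 ug/mL (4 without its replicate 3), 0 to 2 with Zizyphi 500 ug/mL (0 without vehicle replicate 2) and 1 to 6 for Zizyphi 500 against 20 ug/mL (6 without replicate 3 of 20 ug/mL, 1 without its replicate 1 or 2). Where a library of Pinelliae 20 ug/mL was left out, the lone remaining one was assumed to vary like the other groups. For the single genes rerun against vehicle, leaving out 1 library kept direction and side of the threshold in 771 results, lost it in 105 and gained it in 11. DESeq2 did so in 136, 5 and 2. The calls lost included C8A with wortmannin (adjusted p = 0.0752 without wortmannin replicate 3) and CFD with Scutellariae at 500 ug/mL. Low counts limit C6, C7, C8G, CFD and both C5a receptors.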

Other observations

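Other secreted liver proteins and regulators of liver transcription were read from lists that hold no complement gene of the report. Of 22 tested coagulation genes, 19 rose and 0 fell with wortmannin (median log2 change 0.48), with the largest changes in KLKB1 (1.47), FGA (0.83), PROZ (0.73) and F12 (0.70). With Coptidis at 210 ug/mL 3 rose and 16 fell (median -0.51), led by the fibrinogen chains FGA (-3.33), FGG (-3.19) and FGB (-2.21) and by KNG1 (-2.62). Fresh ginger at 500 ug/mL gave 1 higher and 15 lower, dried ginger 1 and 12, and Scutellariae 2 and 15. All of these comparisons share the vehicle libraries. Of all genes tested, 16.2% were called higher and 16% lower with wortmannin, 34.8% and 34.5% with Coptidis, 23.5% and 22.5% with fresh ginger, 21.5% and 20.9% with dried ginger and 24.7% and 25.5% with Scutellariae, at the same doses, and the counts of each list here are to be read against these shares.

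Of 19 tested acute phase genes, some of which are also coagulation genes, 11 rose and 3 fell with wortmannin (median 0.28), among them TTR (1.02), ITIH3 (0.95) and HPX (-0.69). The counts higher and lower were 2 and 15 with Coptidis at 210 ug/mL, 3 and 13 with fresh ginger, 4 and 12 with dried ginger and 1 and 15 with Scutellariae, each at 500 ug/mL. HAMP, the iron hormone hepcidin, changed by -3.59 with Scutellariae. Of 24 transcription regulators linked to liver complement genes, 14 rose and 8 fell with Coptidis at 210 ug/mL (median 0.43). SOCS3, an inhibitor of interleukin 6 signalling, changed by 3.44, the bile acid receptor NR1H4 by -3.02, CEBPB by 2.42, CEBPA by -1.98 and the interleukin 6 receptor IL6R by 2.26, of which CEBPA was named beyond the rule of 4 after its value was seen. Scutellariae at 500 ug/mL gave 9 higher and 11 lower, with NR1H4 at -1.91, SOCS3 at 1.67, CEBPA at -1.66 and IL6R at 1.64. Fresh ginger gave 9 and 9, dried ginger 10 and 9, and wortmannin 4 and 5.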
